A study of Homo sapiens with 18 samples.

Results

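The genes described here are 9 calcium-handling genes expressed in L3.6pl cells, a human pancreatic cancer cell line: the sarco/endoplasmic reticulum calcium pumps (SERCA) ATP2A2 and ATP2A3, the IP3 receptors ITPR1, ITPR2 and ITPR3, the plasma membrane pumps ATP2B1 and ATP2B4, the Golgi pump ATP2C1 and the endoplasmic reticulum (ER) calcium leak channel TMCO1. They were chosen by name and function, with earlier results of these data known, from the 26485 gene rows of a normalized mRNA-seq count table. All 9 were among the 13096 genes with a mean normalized count of at least 10 that were tested. The 18 libraries fell into 6 groups of 3. Gemcitabine-resistant cells (GemR) received siRNA against STIM1 (siSTIM1) or control siRNA (siCont), and each was treated with thapsigargin or its DMSO vehicle. Parental cells (Par) received control siRNA only and the same thapsigargin or vehicle treatment, so that all 6 groups were transfected and no Par group had STIM1 knocked down. siRNA was present for 48 h and thapsigargin at 500 nM for the last 3 h. GemR cells were kept in 64 nM gemcitabine, so resistance, drug exposure and any clonal difference of the GemR line cannot be told apart, and the labels do not say whether the 3 samples of a group came from separate cultures; p-values then measure only the spread between these samples, which may be technical.

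Calcium is stored in the ER against a steep gradient. SERCA pumps load the store, IP3 receptors open in response to inositol trisphosphate made by phospholipase C and release it, and TMCO1 is a leak channel that opens when the store is overfilled. Plasma membrane pumps remove calcium from the cytosol to the outside, and ATP2C1 moves calcium and manganese into the Golgi. Thapsigargin binds and blocks SERCA pumps, so the store empties through the leak, STIM1 senses the empty store and opens ORAI channels in the plasma membrane, and the lack of calcium in the ER starts the unfolded protein response, of which the chaperone HSPA5 and the transcription factor DDIT3 are textbook targets.

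The transcripts of ATP2A2 and ATP2B1 rose with thapsigargin in every cell condition, so their promoters are shown. Windows of 250 bases before to 50 bases after annotated transcription starts were taken from RefSeq (GRCh38.p14). These were present for 7 of the 9 genes, 12 windows in all, and ATP2A3 and ITPR2 are named only. Each window was searched on both strands for the ER stress response element ERSE (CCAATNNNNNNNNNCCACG), for ERSE-II (ATTGGNCCACG) and for TGACGTG, a motif of the stress factor ATF6. The letters CCAAT and CCACG were also counted alone, and they overlap the motifs built from them. Capitals mark CCAAT and CCACG or their reverse complements.
ATP2A2 first start, chr12:110280366-110280665, plus strand: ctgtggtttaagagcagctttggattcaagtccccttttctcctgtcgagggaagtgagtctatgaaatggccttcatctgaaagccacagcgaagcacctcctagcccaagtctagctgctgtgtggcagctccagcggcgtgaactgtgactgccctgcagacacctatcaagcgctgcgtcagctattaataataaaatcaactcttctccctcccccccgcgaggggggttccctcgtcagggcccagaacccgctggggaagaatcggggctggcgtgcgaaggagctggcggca
ATP2A2 second start, chr12:110280997-110281296, plus strand: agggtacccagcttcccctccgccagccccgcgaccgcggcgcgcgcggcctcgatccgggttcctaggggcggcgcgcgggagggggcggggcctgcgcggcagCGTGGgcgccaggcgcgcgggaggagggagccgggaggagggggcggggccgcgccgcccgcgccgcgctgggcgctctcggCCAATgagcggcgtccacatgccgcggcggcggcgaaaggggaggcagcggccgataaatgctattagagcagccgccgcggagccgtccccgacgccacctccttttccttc
ATP2B1 first start, chr12:89709317-89709616, minus strand: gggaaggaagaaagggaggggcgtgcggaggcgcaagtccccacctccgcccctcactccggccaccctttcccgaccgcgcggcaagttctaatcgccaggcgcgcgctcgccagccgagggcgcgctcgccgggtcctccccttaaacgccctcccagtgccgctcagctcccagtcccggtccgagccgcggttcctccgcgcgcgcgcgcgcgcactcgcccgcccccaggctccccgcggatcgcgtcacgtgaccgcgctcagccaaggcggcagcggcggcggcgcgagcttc
ATP2B1 second start, chr12:89708789-89709088, minus strand: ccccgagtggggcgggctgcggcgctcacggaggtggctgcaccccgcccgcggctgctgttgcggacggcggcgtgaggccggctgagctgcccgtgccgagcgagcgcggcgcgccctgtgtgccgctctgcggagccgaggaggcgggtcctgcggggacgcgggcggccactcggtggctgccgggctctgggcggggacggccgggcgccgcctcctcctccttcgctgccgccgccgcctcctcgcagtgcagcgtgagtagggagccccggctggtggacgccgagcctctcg
HSPA5 ERSE match, chr9:125241391-125241409, minus strand, shown for comparison: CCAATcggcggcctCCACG
The full ERSE occurred in 0.0769% of 35116 RefSeq promoter windows, ERSE-II in 0.0541% and TGACGTG in 1.97%. None of the 12 windows of the 7 genes held an exact match of any of these 3 motifs. The search allowed no mismatch. At the second start of ATP2A2, CCAAT is followed after 9 bases by letters that differ from CCACG only in the last base. Such near matches were not counted in the other windows. CCAAT alone, present in 34.6% of all windows, was found at the second start of ATP2A2 and at both TMCO1 starts. CCACG alone, present in 38.1% of all windows, was found at the same windows and at an ITPR1 start. The ATP2B1 windows held neither. A match is a description of these letters and not of binding.

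Each value below is a normalized count, the read count of a gene divided by a size factor of its library. Libraries held 8922439 to 16519239 reads. The siRNA target STIM1 lay between 272 and 401 normalized counts in the 6 GemR siSTIM1 libraries, between 4976 and 6401 in the 6 GemR siCont libraries and between 421 and 481 in the 6 Par libraries. HSPA5 averaged 81593 ± 5053 normalized counts in GemR siSTIM1 cells with thapsigargin against 13467 ± 93.0 with vehicle, 62783 ± 1635 against 12732 ± 767 in GemR siCont cells, and 106848 ± 4069 against 15414 ± 439 in Par cells (SD, n = 3 each). DDIT3 averaged 3688 ± 466 with thapsigargin against 183 ± 10.7 with vehicle in GemR siSTIM1 cells, 1849 ± 161 against 182 ± 36.5 in GemR siCont cells and 6732 ± 195 against 172 ± 15 in Par cells. Epithelial markers were present in all libraries (KRT8, KRT18, KRT19, EPCAM and CDH1 summed to 38106 to 67190), with CDH1 between 81.3 and 641. Their levels differed between the lines at a limma adjusted p under 0.05. In GemR siCont against Par cells with thapsigargin, 3 of the 5 were lower and 1 higher (median log2 fold change -0.76). With vehicle 4 were lower and 0 higher (median -0.84). Of all tested genes, 48.2% and 38.2% passed in these comparisons. Fibroblast markers summed to 1002 to 3177, of which COL1A1 made up 998 to 3123 while DCN was at 0. Immune markers summed to 72.2 to 176, of which CD68 made up 71.2 to 173. Endothelial markers summed to 114 to 282, mostly from PECAM1 (55.3 to 158) and CDH5 (22.4 to 176). Acinar markers summed to 0 to 6.24 (CPA1 and AMY2A at 0). Muscle markers summed to at most 640, of which TNNT3 made up 84.6 to 632 while MYH2 was at 0. TNNT3, the only muscle marker tested, was higher in GemR siCont than in Par cells (log2 fold changes 2.04 with thapsigargin and 2.42 with vehicle). In such bulk samples, fewer cells expressing a gene and less RNA per cell cannot be told apart.

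A pair of libraries stood apart from their replicates. In GemR siCont vehicle replicate 1, the slope of the log2 deviations from the group mean was -0.123 per doubling of transcript length, and in GemR siSTIM1 thapsigargin replicate 1 it was -0.0701. The other 16 libraries had slopes between -0.0329 and 0.0799 per doubling, the highest being GemR siCont vehicle replicate 3, whose group mean includes replicate 1. ITPR1 in GemR siCont vehicle replicate 1 deviated by -0.88 from its group mean on the log2 scale, ATP2B4 by -0.55, ITPR3 by -0.53, ITPR2 by -0.39 and ATP2A2 by -0.39. ATP2B1 deviated by -0.14, and TMCO1, the gene with the shortest exon sequence, lay 0.24 above. For the 9 genes, results that rest on GemR siCont vehicle are also given without its replicate 1 where a statement below turns on it. For the genes of the lists further below, results are given only with that library. The part of transcript length in these results was not tested.

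**Figure D1:**
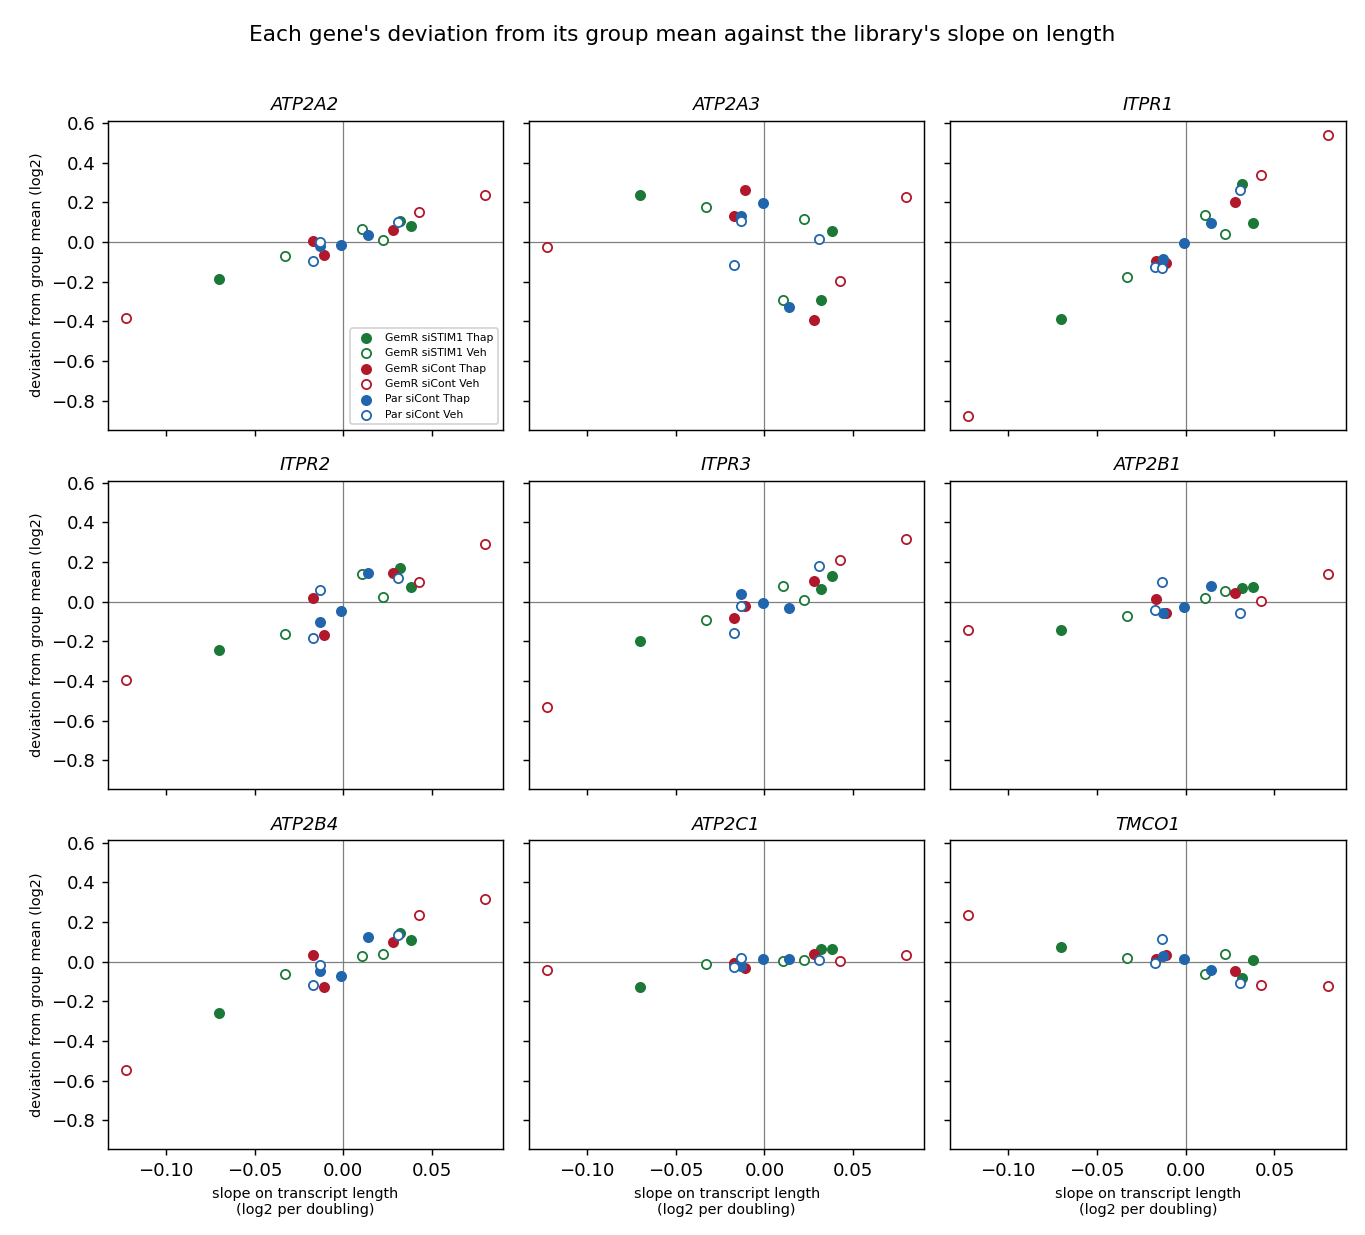
Deviation of each gene from its group mean (y axis, log2) against the slope of the library's log2 values on transcript length (x axis, log2 per doubling of length), with 1 point per library; filled points are thapsigargin libraries, open points vehicle libraries. GemR siCont vehicle replicate 1, at a slope of -0.123, has the lowest point of ITPR1, ITPR2, ITPR3, ATP2A2 and ATP2B4 and the highest of TMCO1.

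Levels were compared between genes per kilobase of exon sequence. With vehicle, ATP2C1 (513 ± 3.30 normalized counts per kb in GemR siSTIM1, 436 ± 11.4 in GemR siCont and 430 ± 7.63 in Par) and ATP2A2 (474 ± 22.4, 384 ± 83.5 and 472 ± 32.2 in the same order of groups) were the highest of the 9 on average. In GemR siCont the ATP2A2 range overlapped those of ATP2C1, TMCO1 and ITPR3. Replicate 1 of GemR siCont vehicle stood at 289 per kb for ATP2A2 and 351 for TMCO1, and replicate 3 at 305 for ITPR3. In replicates 2 and 3 ATP2A2 was at 418 and 445, and TMCO1 at 275 and 274. With thapsigargin ATP2A2 came first (760 ± 83.6 per kb in GemR siSTIM1, 685 ± 29.5 in GemR siCont and 984 ± 20.3 in Par) and ATP2B1 second (619 ± 51.2, 524 ± 18.3 and 456 ± 22.8), with ranges that did not overlap. This order depended on the length used: per kb of the longest annotated transcript, ATP2A2 came first and ATP2C1 second in all 6 groups, with ATP2C1 at 904, 763 and 711 against 836, 707 and 615 for ATP2B1 in GemR siSTIM1, GemR siCont and Par cells with thapsigargin. ITPR1 and ATP2A3 were the lowest of the 9 in every group, between 4.43 and 19.0 per kb on average. In the middle, ITPR2 and ATP2B4 overlapped in the 4 GemR groups, while in both Par groups ITPR2 lay above ATP2B4.

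Within each family a single gene took most of the transcripts. ATP2A2 supplied between 95.8% (Par vehicle) and 98.8% (GemR siCont thapsigargin) of the SERCA level per kb, counted with ATP2A1, the muscle SERCA. Of the plasma membrane pumps, ATP2B1 supplied 88.9 ± 0.691% in GemR siSTIM1 cells with thapsigargin against 73.8 ± 0.185% with vehicle. Its share was 86.9 ± 0.495% against 73.2 ± 4.61% in GemR siCont cells and 86.7 ± 0.385% against 79.4 ± 1.96% in Par cells. ATP2B2 and ATP2B3, the mainly neuronal members, did not exceed 2.83 normalized counts in any library. ITPR3 supplied 79.4 ± 1.13% of the IP3 receptor level in GemR siSTIM1 thapsigargin cells, 78.3 ± 1.39% in GemR siCont thapsigargin cells and 62.4 ± 2.62% in Par thapsigargin cells. With vehicle it supplied 79.3 ± 0.774%, 77.0 ± 1.04% and 68.4 ± 0.892% in the same order. ITPR2 was the second receptor, at 19.1% to 20.3% in the 4 GemR groups and 33.9% with thapsigargin and 29.2% with vehicle in Par cells (SD, n = 3 each). The shares depended on the length used. The ITPR1 share in Par vehicle cells was 2.47% with all exons of the gene, which sum to 32454 bases, and 7.21% with the longest annotated transcript of 10197 bases. With the longest transcript as length, ITPR3 supplied 71.2% in GemR siCont vehicle, 55.6% in Par thapsigargin and 62.8% in Par vehicle cells. ATP2B1 then supplied 82.7% of its family in Par vehicle cells.

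**Figure D2:**
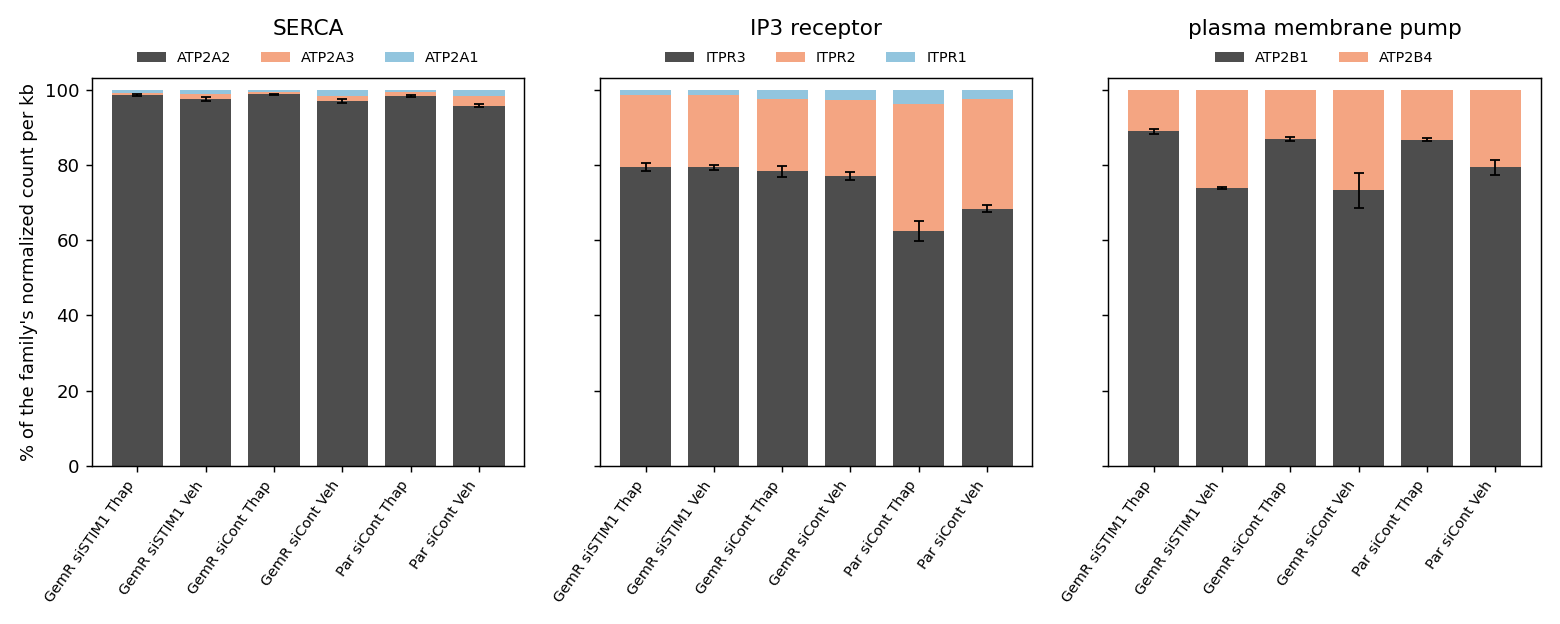
Share of each family's summed normalized count per kb (y axis, %) taken by each gene in the 6 groups (x axis), with all exons of a gene as its length. Bars are means of 3 libraries and error bars are the SD of the lowest segment. ITPR3 takes 77.0% to 79.4% of the IP3 receptor level in the GemR groups and 62.4% to 68.4% in the Par groups, and ATP2B1 takes more of the plasma membrane pump level with thapsigargin than with vehicle in each condition.

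Differences between groups were tested with limma on log2(normalized count + 1), with Benjamini-Hochberg adjustment over the 13096 genes. A gene is said to have risen or fallen where the adjusted p was under 0.05. With thapsigargin against vehicle, 2 of the 9 genes rose and none fell in GemR siSTIM1 cells, where 24.3% of all tested genes passed. In GemR siCont cells 3 rose and none fell, with 33.6% of all genes passing, and in Par cells 4 rose and none fell, with 40.1% passing. The median log2 fold change of the 9 genes was -0.0037, 0.29 and 0.14 in these 3 comparisons, beside -0.011, -0.025 and -0.018 over all tested genes. In GemR siSTIM1 against GemR siCont cells, 2 were higher and 1 lower with thapsigargin (36.6% of all genes passed), and 5 were higher and 1 lower with vehicle (42% passed). In GemR siCont against Par cells, 1 was higher and 4 lower with thapsigargin (48.2% passed), and none was higher and 4 were lower with vehicle (38.2% passed). The thapsigargin response itself differed between GemR siCont and Par cells for 1 of the 9 genes (14.8% of all genes passed). Between GemR siSTIM1 and GemR siCont cells it differed for none (4.41% of all genes passed), and none reached an unadjusted p under 0.05 in limma or passed with edgeR or DESeq2. These counts were within 1 gene of what the share over all genes would give, except for GemR siSTIM1 against GemR siCont with vehicle, where 6 of 9 passed in limma and 2 with edgeR or DESeq2. With the library's slope on transcript length as a covariate, 7 of the 9 passed for thapsigargin in GemR siCont cells (49.8% of all genes then passed), 4 for the difference of responses between GemR siCont and Par cells (29.3%) and 7 for that between GemR siSTIM1 and GemR siCont cells (26.7%). That slope was taken from deviations from the group means of these same values. The covariate therefore left the log2 fold changes as they were and changed only the estimated spread. It cannot correct a difference between groups for length, and its added calls are not further evidence. The comparisons share groups, so their calls are not independent of each other, and what follows describes single genes.

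**Figure D3:**
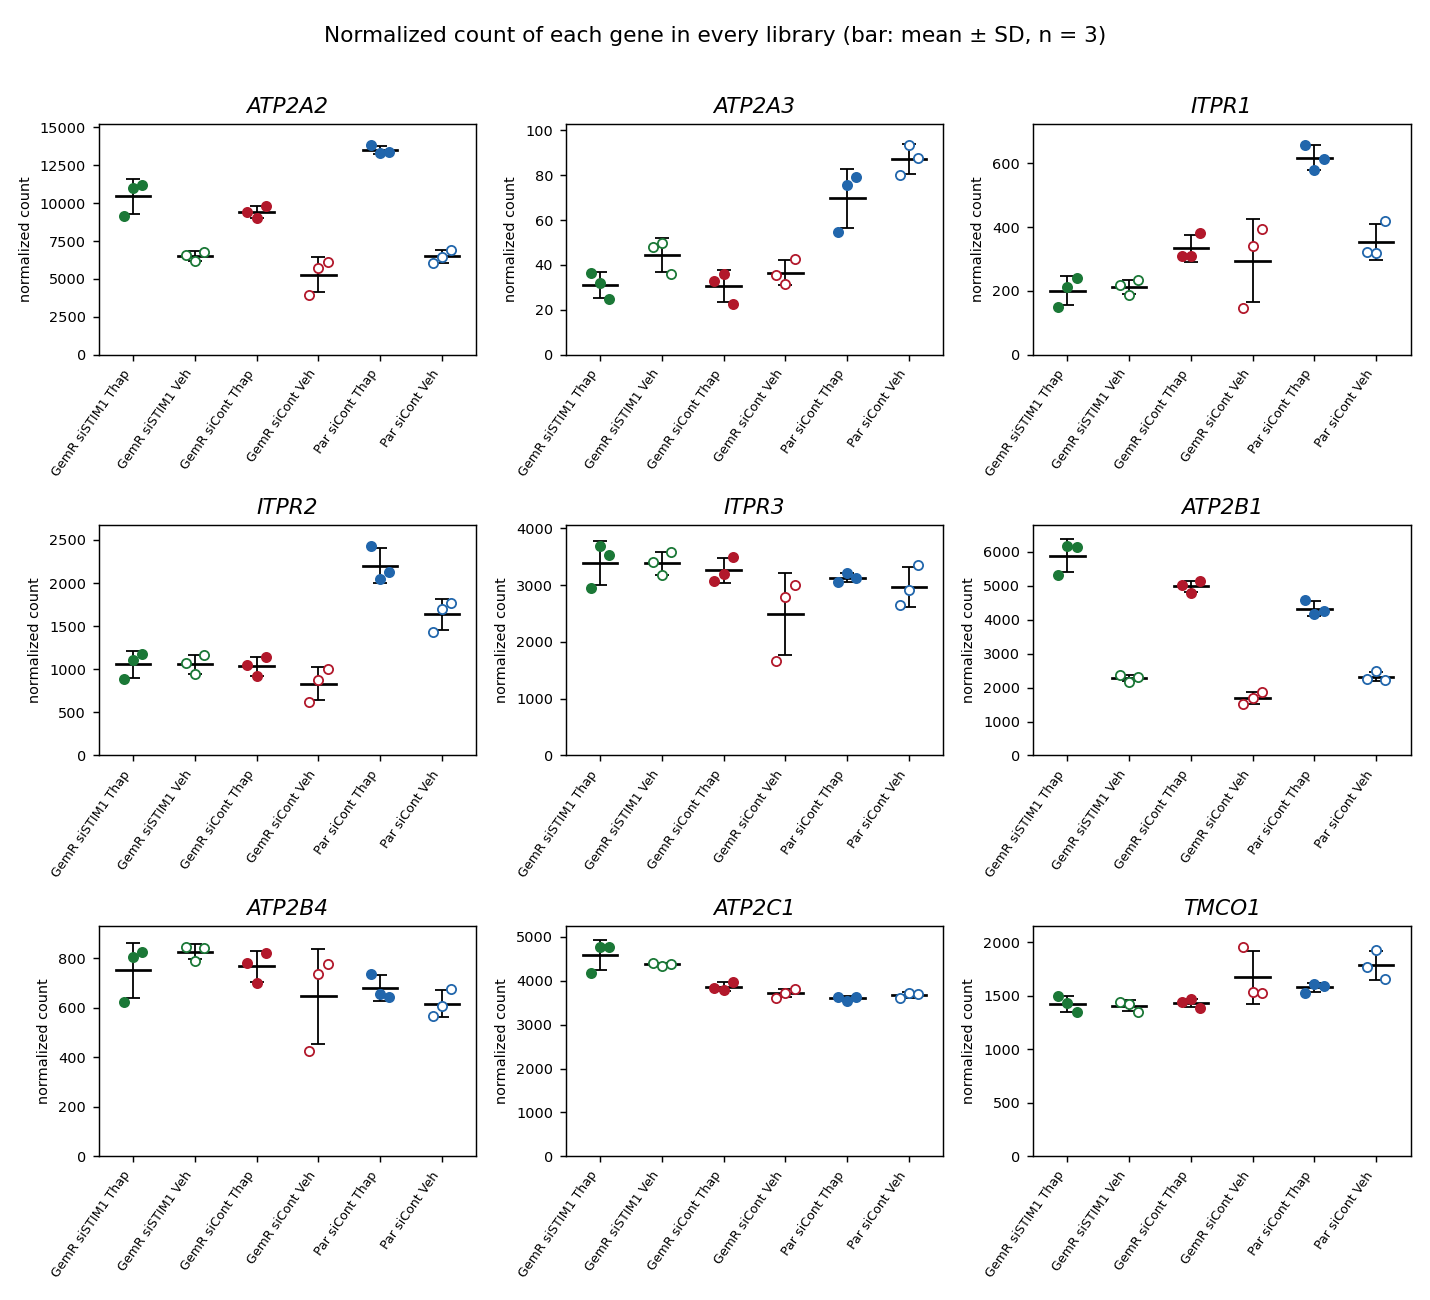
Normalized count (y axis, from 0) of each of the 9 genes in every library of the 6 groups (x axis); filled points are thapsigargin libraries, open points vehicle libraries, lines are means and error bars SD (n = 3). ATP2A2 and ATP2B1 lie higher with thapsigargin in each condition with no overlap, while ATP2C1 spans 3543 to 4779 over all 18 libraries.

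ATP2A2 (ENSG00000174437.16, chr12:110280756-110351093, plus strand of GRCh38) encodes SERCA2, the housekeeping pump among the SERCA pumps that thapsigargin blocks. Its transcript rose with thapsigargin in each condition. In GemR siSTIM1 cells the normalized counts were 9123, 11002 and 11206 with thapsigargin, against 6546, 6189 and 6803 with vehicle. In GemR siCont cells they were 9448, 8998 and 9807 with thapsigargin, against 3967, 5748 and 6112 with vehicle. In Par cells they were 13847, 13343 and 13386 with thapsigargin, against 6053, 6467 and 6937 with vehicle. Every thapsigargin library lay above every vehicle library, and the 3 Par thapsigargin libraries were the highest of all 18. The log2 fold changes were 0.68 ± 0.11 in GemR siSTIM1 (adjusted p = 0.000168), 0.86 ± 0.11 in GemR siCont (adjusted p = 7.43e-06) and 1.06 ± 0.11 in Par cells (SE; adjusted p = 4.35e-07), or 1.60-fold, 1.82-fold and 2.09-fold, and all 3 passed in the 20 alternative settings of each. A difference of the responses did not pass: GemR siCont minus Par was -0.20 with a 95% interval of -0.54 to 0.14, and GemR siSTIM1 minus GemR siCont was -0.18 with an interval of -0.52 to 0.16. Without GemR siCont vehicle replicate 1, the GemR siCont minus Par difference was -0.40 (adjusted p = 0.00632) and the GemR siSTIM1 minus GemR siCont difference turned to 0.0091 (adjusted p = 0.979).

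Between the cell lines, ATP2A2 was 1.44-fold lower in GemR siCont than in Par cells with thapsigargin (log2 fold change -0.52 ± 0.11, adjusted p = 0.000952), with no overlap. With vehicle the log2 fold change was -0.32 ± 0.11 (adjusted p = 0.0336) with overlapping values, and it did not pass without replicate 2 or 3 of Par vehicle (adjusted p = 0.0721 and 0.126) or without GemR siCont vehicle replicate 1, where it was -0.13 (adjusted p = 0.192). GemR siSTIM1 against GemR siCont cells with vehicle gave 0.33 ± 0.11 (adjusted p = 0.0282), and without that library 0.13 (adjusted p = 0.171). It did not pass without replicate 1 or 3 of GemR siSTIM1 vehicle either (adjusted p = 0.0702 and 0.0919). The vehicle differences GemR siCont against Par and GemR siSTIM1 against GemR siCont each did not pass in 9 of 20 alternatives. Among these were edgeR (adjusted p = 0.0571 and 0.133) and limma with only the groups compared (adjusted p = 0.161 and 0.136). With thapsigargin GemR siSTIM1 against GemR siCont gave 0.14 ± 0.11 (adjusted p = 0.351), and 0.24 (adjusted p = 0.000804) without both libraries that stood apart.

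ATP2A3 (ENSG00000074370.17, chr17:3923870-3964464, minus strand) encodes SERCA3, a pump with lower calcium affinity found in blood cells, endothelium and some epithelia. It was expressed at a low level, 21 to 90 reads per library. Its normalized counts with thapsigargin were 32.9, 36.1 and 22.5 in GemR siCont cells and 54.8, 75.5 and 79.0 in Par cells. With vehicle they were 35.6, 31.5 and 42.6 in GemR siCont cells and 80.2, 93.5 and 87.8 in Par cells. All 6 Par libraries lay above all 6 GemR siCont libraries. The transcript was 2.26-fold lower in GemR siCont cells with thapsigargin (log2 fold change -1.18 ± 0.21, adjusted p = 0.00015) and 2.36-fold lower with vehicle (-1.24 ± 0.21, adjusted p = 0.000129), in each of the 19 alternatives that tested it. GemR siSTIM1 cells, at 36.6, 32.1 and 25.0 with thapsigargin and 47.8, 49.8 and 35.8 with vehicle, overlapped the GemR siCont cells, and the difference did not pass with either treatment. No thapsigargin effect passed: the log2 fold changes were -0.50 (adjusted p = 0.0993) in GemR siSTIM1, -0.27 (adjusted p = 0.346) in GemR siCont and -0.33 (adjusted p = 0.225) in Par cells.

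ATP2B1 (ENSG00000070961.15, chr12:89588049-89709300, minus strand) encodes PMCA1, the housekeeping plasma membrane calcium pump. It had the largest thapsigargin response of the 9 genes in both GemR conditions. In GemR siSTIM1 cells the normalized counts were 5319, 6173 and 6148 with thapsigargin, against 2363, 2172 and 2306 with vehicle. In GemR siCont cells they were 5017, 4782 and 5123 with thapsigargin, against 1528, 1690 and 1864 with vehicle. In Par cells they were 4570, 4161 and 4242 with thapsigargin, against 2255, 2483 and 2228 with vehicle. The thapsigargin libraries lay above the vehicle libraries throughout, and the order of the conditions was not the same with the 2 treatments: GemR siCont was lowest with vehicle and Par was lowest with thapsigargin. The log2 fold change was 1.36 ± 0.077 in GemR siSTIM1 cells (2.57-fold, adjusted p = 7.72e-11), 1.56 ± 0.077 in GemR siCont cells (2.94-fold, adjusted p = 5.67e-12) and 0.90 ± 0.077 in Par cells (1.86-fold, adjusted p = 1.76e-08).

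The ATP2B1 response of GemR siCont cells exceeded that of Par cells by 0.66 ± 0.11 on the log2 scale (95% interval 0.43 to 0.89, adjusted p = 0.000284), and this passed in all 26 alternatives, including those without GemR siCont vehicle replicate 1. Between GemR siSTIM1 and GemR siCont cells the responses differed by -0.19 (95% interval -0.42 to 0.033, adjusted p = 0.314), and by -0.12 (adjusted p = 0.589) without that library. With vehicle, ATP2B1 was 1.37-fold lower in GemR siCont than in Par cells (log2 fold change -0.46 ± 0.077, adjusted p = 0.000102). With thapsigargin it was 1.15-fold higher (0.20 ± 0.077, adjusted p = 0.0361), which did not pass in 6 of 20 alternatives, including those without Par thapsigargin replicate 2 or 3 or GemR siCont thapsigargin replicate 1 or 3 (adjusted p = 0.0876 to 0.119). GemR siSTIM1 cells lay above GemR siCont cells with no overlap, by 1.18-fold with thapsigargin (0.24 ± 0.077, adjusted p = 0.02, not passing without GemR siCont thapsigargin replicate 2 or without GemR siSTIM1 thapsigargin replicate 2 or 3, at adjusted p = 0.0803 to 0.0859) and by 1.35-fold with vehicle (0.43 ± 0.077, adjusted p = 0.000215).

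ATP2B4 (ENSG00000058668.14, chr1:203626561-203744081, plus strand), encoding the plasma membrane pump PMCA4, did not pass in any of the 9 comparisons in the main limma fit to all 18 libraries. GemR siSTIM1 against GemR siCont with vehicle passed when median-centred, quantile normalized or with a replicate block (limma adjusted p = 0.0483, 0.0444 and 0.0327). GemR siCont against Par with thapsigargin (main log2 fold change 0.18) passed with only the groups compared and without both libraries that stood apart (limma adjusted p = 0.0321 and 0.0385). It averaged 751 ± 111 normalized counts in GemR siSTIM1 cells with thapsigargin and 827 ± 31.3 with vehicle, 768 ± 61.7 and 647 ± 191 in GemR siCont cells, and 679 ± 51.8 and 617 ± 55.3 in Par cells (SD, n = 3 each). The vehicle mean of GemR siCont holds replicate 1 at 428, against 736 and 778 in the other libraries of the group, and is 757 without it. GemR siCont against Par cells with vehicle then gave 0.30 (adjusted p = 0.0279), against 0.025 with it. GemR siSTIM1 against GemR siCont cells with vehicle gave 0.40 ± 0.16 (adjusted p = 0.0511), and 0.13 (adjusted p = 0.373) without replicate 1 of GemR siCont vehicle; without its replicate 2 or 3 the adjusted p was 0.0244 and 0.00822. The response in GemR siCont cells was 0.018 (adjusted p = 0.925) without replicate 1 and 0.45 (adjusted p = 0.033) without replicate 3 of GemR siCont vehicle. Without replicate 1 the difference of responses GemR siCont minus Par turned to -0.12, against 0.15 with it, and GemR siSTIM1 minus GemR siCont was -0.17, against -0.44; neither difference passed, with or without it. The thapsigargin response was -0.15 in GemR siSTIM1 (95% interval -0.48 to 0.19), 0.29 in GemR siCont (-0.043 to 0.63) and 0.14 in Par cells (-0.20 to 0.48). ATP2B1 and ATP2B4 thus had unequal responses within the same libraries, as the share of ATP2B1 above shows.

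**Figure D4:**
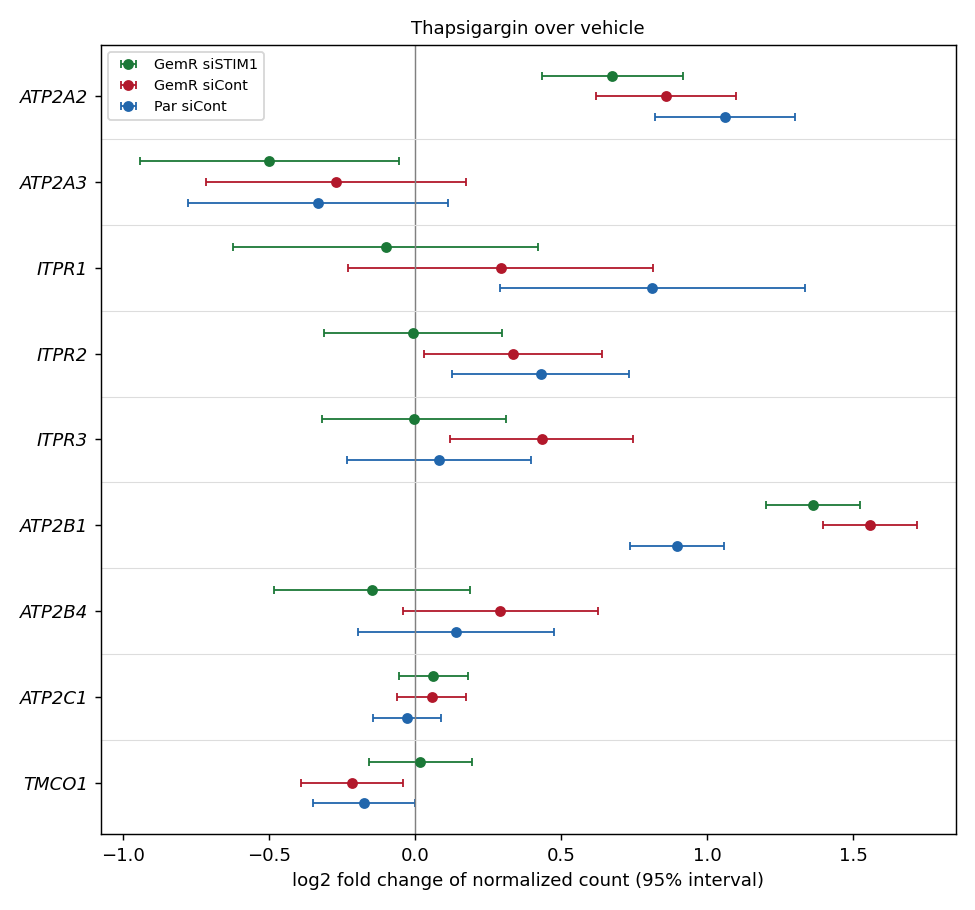
Log2 fold change of the normalized count, thapsigargin over vehicle (x axis), for the 9 genes (y axis) in GemR siSTIM1, GemR siCont and Par siCont cells; points are limma estimates and bars 95% intervals. The intervals of ATP2A2 and ATP2B1 lie above 0 in all 3 conditions, and the ATP2B1 intervals of GemR siCont (1.40 to 1.72) and Par (0.74 to 1.06) do not meet.

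ATP2C1 (ENSG00000017260.19, chr3:130850595-131016712, plus strand) encodes SPCA1, the calcium and manganese pump of the Golgi. It had the narrowest range of the 9 genes, 1.35-fold between its lowest and highest library. With thapsigargin its normalized counts were 4186, 4770 and 4779 in GemR siSTIM1 cells, against 3846, 3781 and 3969 in GemR siCont cells. With vehicle they were 4399, 4345 and 4385 in GemR siSTIM1 cells, against 3613, 3732 and 3807 in GemR siCont cells. The GemR siSTIM1 libraries lay above the GemR siCont libraries with both treatments, at log2 fold changes of 0.24 ± 0.056 with thapsigargin (adjusted p = 0.00213) and 0.24 ± 0.056 with vehicle (adjusted p = 0.00257), or 1.18-fold each, and these passed in all 20 alternatives of each. The Par libraries lay between 3543 and 3721, and GemR siCont against Par cells gave 0.10 (adjusted p = 0.142) with thapsigargin and 0.018 (adjusted p = 0.832) with vehicle. With thapsigargin the log2 fold changes of ATP2C1 were 0.062 in GemR siSTIM1, 0.056 in GemR siCont and -0.028 in Par cells, and none of them passed. Without both libraries that stood apart the first was 0.13 (adjusted p = 0.0384). A stretch of 188 exon bases is shared on the opposite strand with ASTE1, which averaged 199 normalized counts against 3968 for ATP2C1.

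TMCO1 (ENSG00000143183.16, chr1:165724293-165827755, minus strand) encodes the load-activated leak channel of the ER. It averaged 1425 ± 75.6 normalized counts in GemR siSTIM1 cells with thapsigargin and 1407 ± 51.1 with vehicle, 1433 ± 40.4 and 1674 ± 247 in GemR siCont cells, and 1578 ± 42.5 and 1783 ± 136 in Par cells (SD, n = 3 each). With vehicle it was lower in GemR siSTIM1 than in GemR siCont cells (log2 fold change -0.24 ± 0.084, adjusted p = 0.0267), where GemR siCont replicate 1 stood at 1960 against 1533 and 1529 in the others. Without that library the difference was -0.12 (adjusted p = 0.165), and it did not pass without GemR siSTIM1 vehicle replicate 3 either (adjusted p = 0.0949). In all it did not pass in 7 of 20 alternatives, among them edgeR and DESeq2 (adjusted p = 0.0685 and 0.0943). GemR siCont against Par cells with vehicle gave -0.098 (adjusted p = 0.374), and -0.22 (adjusted p = 0.0137) without GemR siCont vehicle replicate 1. The thapsigargin responses in GemR siCont (-0.22 ± 0.084, adjusted p = 0.0546) and Par cells (-0.17 ± 0.084, adjusted p = 0.105) did not pass, although the groups did not overlap in either. The first was -0.096 (adjusted p = 0.312) without GemR siCont vehicle replicate 1 and passed without its replicate 2 or 3 (adjusted p = 0.0286 and 0.0203). It passed in 8 of 20 alternatives, among them limma with quantile normalization or a replicate block (adjusted p = 0.0241 and 0.037), edgeR (0.0499) and DESeq2 (0.0497). The second passed in 4 of 20 alternatives. Among these were limma without both libraries that stood apart, with quantile normalization and with only the groups compared (adjusted p = 0.00937, 0.0266 and 0.0171). The difference of responses did not pass, at -0.041 for GemR siCont minus Par (0.078 without GemR siCont vehicle replicate 1) and 0.23 for GemR siSTIM1 minus GemR siCont (0.11 without it). In the authors' deposited table the GemR siCont value is -0.22 with an adjusted p of 0.0436. TMCO1 shares 225 exon bases on the opposite strand with UCK2, a pyrimidine kinase of similar level (mean 1624 normalized counts, against 1550 for TMCO1), and reads from the shared stretch cannot be told apart without strand. UCK2 had a log2 fold change of -0.26 (adjusted p = 0.00468) with thapsigargin in GemR siCont cells; its part in the TMCO1 values was not tested.

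Among the IP3 receptors, ITPR2 (ENSG00000123104.11, chr12:26336515-26833198, minus strand), the receptor most sensitive to IP3, differed most between the lines. With thapsigargin its normalized counts were 1047, 920 and 1142 in GemR siCont cells, against 2433, 2049 and 2127 in Par cells. With vehicle they were 622, 878 and 1003 in GemR siCont cells, against 1438, 1698 and 1773 in Par cells. The highest GemR siCont library lay below the lowest Par library. ITPR2 was 2.13-fold lower in GemR siCont cells with thapsigargin (log2 fold change -1.09 ± 0.15, adjusted p = 5.13e-06) and 1.99-fold lower with vehicle (-0.99 ± 0.15, adjusted p = 2.27e-05), in all 20 alternatives of each. GemR siSTIM1 cells, at 885, 1105 and 1181 with thapsigargin and 1071, 941 and 1163 with vehicle, did not reach the Par levels. Their difference from GemR siCont cells was 0.023 (adjusted p = 0.925) with thapsigargin and 0.37 (adjusted p = 0.0499) with vehicle. That vehicle difference did not pass in 12 of 20 alternatives among them those without replicate 1 or 3 of GemR siSTIM1 vehicle (adjusted p = 0.113 and 0.174) or replicate 1 or 2 of GemR siCont vehicle (0.287 and 0.0518). Without GemR siCont vehicle replicate 1 it was 0.17. In Par cells ITPR2 rose 1.35-fold with thapsigargin (0.43 ± 0.15, adjusted p = 0.0234), and it did not pass without replicate 1 of Par vehicle (adjusted p = 0.116) or of Par thapsigargin (adjusted p = 0.107). In GemR siCont cells the response was 0.34 (adjusted p = 0.0827), with 0.14 (adjusted p = 0.422) without GemR siCont vehicle replicate 1 and 0.48 (adjusted p = 0.0129) without replicate 3. The difference of responses, GemR siCont minus Par, was -0.095 (95% interval -0.52 to 0.33), and -0.29 (adjusted p = 0.197) without GemR siCont vehicle replicate 1. GemR siSTIM1 minus GemR siCont was -0.34 (adjusted p = 0.346), and -0.15 (adjusted p = 0.723) without it.

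ITPR1 (ENSG00000150995.19, chr3:4493345-4847840, plus strand), the main receptor of neurons, had the widest range of the 9 genes, 4.47-fold, and 132 to 696 reads per library. With thapsigargin its normalized counts were 150, 211 and 242 in GemR siSTIM1 cells, 310, 308 and 381 in GemR siCont cells and 657, 579 and 613 in Par cells. These 3 groups did not overlap. ITPR1 was 1.68-fold lower in GemR siSTIM1 than in GemR siCont cells (log2 fold change -0.75 ± 0.25, adjusted p = 0.0244) and 1.85-fold lower in GemR siCont than in Par cells (-0.89 ± 0.25, adjusted p = 0.00634). The second of these passed in all 20 alternatives. The first was -0.55 (adjusted p = 0.117) without GemR siSTIM1 thapsigargin replicate 1, the other library that stood apart, and -0.65 (adjusted p = 0.0937) without GemR siCont thapsigargin replicate 3.

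With vehicle, the ITPR1 counts were 217, 187 and 232 in GemR siSTIM1 cells, 147, 342 and 394 in GemR siCont cells and 321, 319 and 419 in Par cells. GemR siCont replicate 1 was the lowest of all 18 libraries while the others of its group lay within the Par range. GemR siCont against Par cells gave -0.37 (adjusted p = 0.256), turning to 0.067 (adjusted p = 0.774) without GemR siCont vehicle replicate 1, and -0.64 (adjusted p = 0.0422) without replicate 3. The GemR siSTIM1 against GemR siCont difference was -0.35 ± 0.25 (adjusted p = 0.265), and without that library -0.79 (adjusted p = 0.000437). ITPR1 rose 1.76-fold with thapsigargin in Par cells (0.81 ± 0.25, adjusted p = 0.0139), with no overlap; without replicate 1 or 2 of Par vehicle or replicate 1 of Par thapsigargin the adjusted p was 0.0505 to 0.0529. Its response was -0.10 (adjusted p = 0.827) in GemR siSTIM1 and 0.29 (adjusted p = 0.39) in GemR siCont cells, the second turning to -0.14 without GemR siCont vehicle replicate 1. The GemR siCont minus Par difference of responses was -0.52 (adjusted p = 0.386), and -0.96 (adjusted p = 0.00216) without that library. The GemR siSTIM1 minus GemR siCont difference was -0.39 (adjusted p = 0.532), and 0.044 (adjusted p = 0.955) without it.

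ITPR3 (ENSG00000096433.10, chr6:33620365-33696574, plus strand), the receptor typical of secretory epithelia and the most abundant of the 3 here, did not pass between the lines. It averaged 3388 ± 394 normalized counts in GemR siSTIM1 cells with thapsigargin and 3385 ± 201 with vehicle, 3259 ± 217 and 2489 ± 719 in GemR siCont cells, and 3132 ± 81.0 and 2971 ± 350 in Par cells (SD, n = 3 each). GemR siCont vehicle replicate 1, at 1668, was the lowest of the 18 libraries, and the other libraries of its group were at 2792 and 3006. ITPR3 rose with thapsigargin in GemR siCont cells (0.43 ± 0.15, adjusted p = 0.032) and was higher in GemR siSTIM1 than in GemR siCont cells with vehicle (0.49 ± 0.15, adjusted p = 0.0141). Without that library these were 0.17 (adjusted p = 0.177) and 0.22 (adjusted p = 0.0602). The first also did not pass without GemR siCont thapsigargin replicate 2 or 3 (adjusted p = 0.0649 and 0.113), and the second without GemR siSTIM1 vehicle replicate 3 (adjusted p = 0.0543). In all, the first did not pass in 9 of 20 alternatives, among them limma with only the groups compared (adjusted p = 0.157) and edgeR (0.0564). The second did not pass in 5 of 20, among them limma with only the groups compared (adjusted p = 0.0953), edgeR (0.0812) and DESeq2 (0.0599). GemR siCont against Par cells gave 0.056 (95% interval -0.26 to 0.37) with thapsigargin and -0.30 (-0.61 to 0.019) with vehicle, the second being -0.030 (adjusted p = 0.828) without GemR siCont vehicle replicate 1 and -0.45 (adjusted p = 0.0189) without replicate 3. The differences of responses were 0.35 for GemR siCont minus Par and -0.44 for GemR siSTIM1 minus GemR siCont, and 0.085 and -0.17 without replicate 1; none passed. ITPR3 shares 1025 exon bases on the opposite strand with UQCC2, which averaged 617 normalized counts against 3104 for ITPR3.

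**Figure D5:**
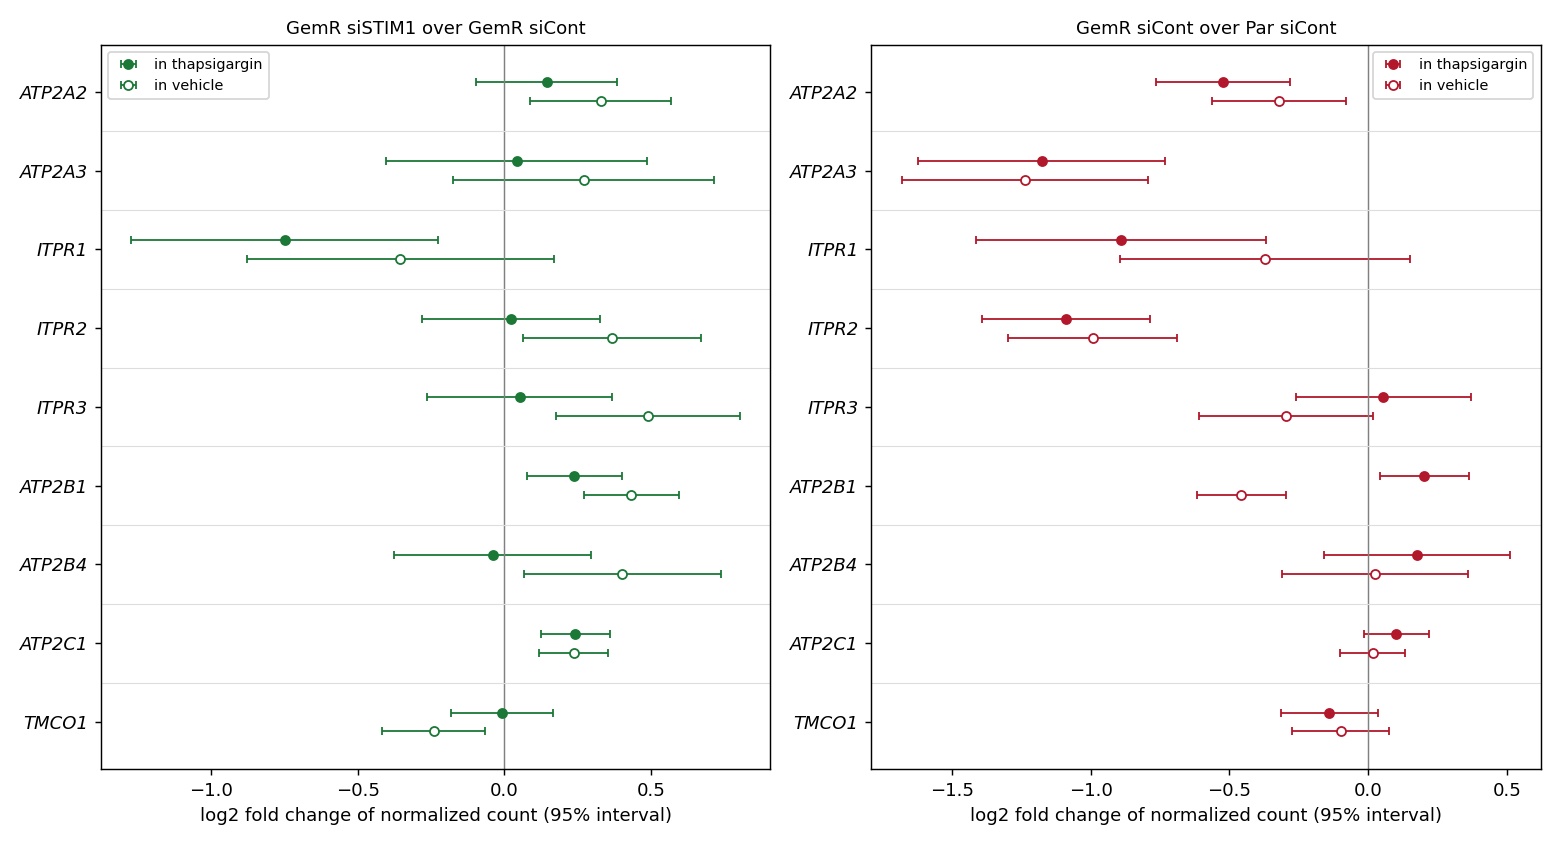
Log2 fold change of the normalized count (x axis) for the 9 genes (y axis), GemR siSTIM1 over GemR siCont on the left and GemR siCont over Par siCont on the right; filled points are thapsigargin, open points vehicle, bars 95% intervals. On the right, ITPR2 and ATP2A3 lie near -1 with both treatments and ATP2B1 lies on opposite sides of 0; on the left, ATP2C1 lies at 0.24 with both.

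The genes whose log2 values followed each of the 9 most closely over the 18 libraries are given as a description, since the libraries share treatment, cell line and slope on length. COPA, a coat protein of Golgi-to-ER vesicles, and ERN1, the IRE1 sensor of the unfolded protein response, followed ATP2A2 (Pearson r = 0.993 and 0.985). EXT1, a heparan sulfate synthase, and BACH2, a transcription factor, followed ATP2B1 (r = 0.990 and 0.981). For ITPR1 they were KIF13B and EIF3A (0.977 and 0.976), for ITPR2 NUP98 and FOXJ3 (0.978 and 0.974), and for ITPR3 USP42 and WIPF2 (0.969 and 0.961). NOTCH2 and BRWD3 followed ATP2B4 (0.966 each), PTPN9 and AVL9 followed ATP2C1 (0.950 and 0.946), GJA5 and TMEM171 followed ATP2A3 (0.956 and 0.936), and SNHG19 and MRPS15 followed TMCO1 (0.943 and 0.941).

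The other genes of calcium handling are described by lists, whose medians of log2 fold change stand beside medians of -0.011, -0.025 and -0.018 over all genes with thapsigargin in GemR siSTIM1, GemR siCont and Par cells. The counts of genes that rose or fell in the lists stand beside 24.3%, 33.6% and 40.1% of all tested genes passing, in the same order. Other pumps and exchangers were mostly low, and 6 of 14 listed genes were tested, with medians of -0.032, -0.064 and -0.043. TMEM165, a Golgi cation exchanger, fell with thapsigargin to 967 ± 27.3 normalized counts in GemR siCont cells, against 1231 ± 84.6 with vehicle (log2 fold change -0.35, adjusted p = 0.000262). It also fell in Par cells, with 1013 ± 35.3 against 1465 ± 35.8 (-0.53, adjusted p = 1.55e-06), and no other gene of the list passed for thapsigargin. ATP2C2, the second Golgi pump, was higher in GemR siSTIM1 than in GemR siCont cells, at 47.7 to 65.2 against 22.6 to 25.7 normalized counts with thapsigargin and 49.8 to 66.0 against 16.7 to 22.7 with vehicle (log2 fold changes 1.21 and 1.52). The exchanger SLC8A1 was also higher, at 34.9 ± 5.26 against 14.4 ± 4.36 with thapsigargin. SLC8B1, the mitochondrial sodium/calcium exchanger, was lower in GemR siCont than in Par cells with both treatments (-0.88 with thapsigargin, -0.56 with vehicle).

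Proteins that bind calcium in the ER rose with thapsigargin: 13 of 16 tested genes in GemR siSTIM1, 12 in GemR siCont and 12 in Par cells passed upwards and none downwards, with list medians of 0.60, 0.49 and 0.61. HSPA5 rose most, with log2 fold changes between 2.30 in GemR siCont and 2.79 in Par cells. The secreted ER proteins MANF (1.74, 1.18 and 1.58 in GemR siSTIM1, GemR siCont and Par cells) and CRELD2 (1.41, 0.97 and 1.58) rose in each. All 8 genes of an ER stress list rose in each condition, with medians of 2.42, 2.0 and 3.03. In GemR siCont against Par cells, 12 of the 16 were lower with thapsigargin and 11 with vehicle, and 1 was higher with each. Of all tested genes, 48.2% passed in this comparison with thapsigargin and 38.2% with vehicle, in both directions together. Of the SERCA regulators and folding factors, 5 of 11 tested genes rose and 1 fell in GemR siSTIM1 cells, 3 rose in GemR siCont cells and 4 in Par cells, with medians of 0.34, -0.052 and 0.16. DNAJC10, an ER reductase known to act on SERCA2, rose by 0.50, 0.44 and 0.68 (SE 0.065 each), and PDIA3, a disulfide isomerase that acts on SERCA2, by 0.69, 0.38 and 0.63 (SE 0.086 each). In GemR siCont against Par cells with thapsigargin, 6 of the 11 were lower and 1 was higher, beside 48.2% of all tested genes passing.

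Of the partners that bind or degrade IP3 receptors, 26 of 33 listed genes were tested, and thapsigargin raised 5 and lowered 5 in GemR siSTIM1, raised 7 and lowered 3 in GemR siCont, and raised 7 and lowered 8 in Par cells, with medians of -0.045, 0.013 and -0.061. ITPRIP, a protein that binds the receptors and modulates their sensitivity to calcium, had the largest rise: 1819 ± 63.1 against 731 ± 45.1 normalized counts in GemR siSTIM1 cells, 1979 ± 98.7 against 662 ± 76.9 in GemR siCont cells and 3946 ± 64.5 against 822 ± 117 in Par cells (SD, n = 3 each). Its response was smaller in GemR siCont than in Par cells (log2 difference -0.69 ± 0.13, adjusted p = 0.00125). SSFA2, which anchors the receptors to actin, and BCL2L1, a BCL2 family protein that binds them, also differed in response between these conditions (0.62 ± 0.13 and -0.80 ± 0.11). For both, the response differed in the other direction between GemR siSTIM1 and GemR siCont cells (-0.57, adjusted p = 0.0157, and 0.52, adjusted p = 0.00916). The GemR siCont response enters these differences with opposite signs, so a deviation of its vehicle replicate 1 moves them in opposite directions. Values without that library are not given for these genes.

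Of phospholipase C and IP3 metabolism genes, 22 of 25 were tested. With thapsigargin 4 rose and 4 fell in GemR siSTIM1, 5 rose and 2 fell in GemR siCont, and 6 rose and 5 fell in Par cells, with medians of -0.059, 0.090 and 0.13. ITPKC, a kinase that phosphorylates IP3, stood at 410 to 465 normalized counts in GemR siCont cells with thapsigargin, against 924 to 1009 in Par cells, and at 176 to 242 against 378 to 457 with vehicle (log2 fold changes -1.13 and -0.92). The phospholipase PLCD3 was the only gene of the list whose response differed in both tests, with a GemR siCont response above that of Par cells (0.46, adjusted p = 0.00319) and a GemR siSTIM1 response below that of GemR siCont cells (-0.48, adjusted p = 0.00707). Both tests share the GemR siCont response, with opposite signs, and values without its deviating vehicle library are not given.

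Of other release and leak channels, 18 of 20 were tested, and 4 rose and 3 fell in GemR siSTIM1, 3 rose and 3 fell in GemR siCont, and 5 rose and 3 fell in Par cells, with medians of -0.027, 0.066 and -0.014. SEC61A1, the translocon subunit through which calcium also leaks, rose in each, and its response was smaller in GemR siCont than in Par cells (-0.34, adjusted p = 0.00304). Of 12 tested mitochondrial uptake genes, 1 rose in each condition and 1 fell in GemR siCont and 3 in Par cells (medians 0.016 in GemR siSTIM1, -0.097 in GemR siCont and -0.068 in Par cells). MCU, the channel itself, rose in each condition by 0.22 to 0.34, and MICU2, its regulator, was higher in GemR siCont than in Par cells by 0.52 with thapsigargin and 0.90 with vehicle. Of 9 tested store-operated entry genes, 1 rose and 1 fell in GemR siSTIM1, 2 rose and 1 fell in GemR siCont, and 1 rose and 2 fell in Par cells (medians -0.058, 0.11 and -0.16). The channel subunit ORAI2 had an opposite response in the cell lines (0.37 ± 0.13 in GemR siCont and -0.39 ± 0.13 in Par cells, difference 0.76, adjusted p = 0.00608), and ORAI3 was higher in GemR siSTIM1 than in GemR siCont cells, at 198 ± 27.6 against 80.9 ± 2.20 normalized counts with thapsigargin and 189 ± 3.11 against 61.5 ± 5.99 with vehicle.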

How the data were processed

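mRNA-seq libraries of L3.6pl cells were prepared from 500 ng of RNA (TruSeq RNA Library Prep Kit v2), per the labels' protocols. STAR 2.6.0c, HTSeq 0.11.1 and DESeq2 on hg38 are named by the submitters' processing notes; sources used here do not give the gene annotation or strand setting. Gene by library, the authors deposited normalized counts (a signal: read counts over a size factor per library) and, per the file headers, DESeq2 tables with log2 fold changes and adjusted p-values for thapsigargin, used only where named. All columns were used. Values were whole multiples of a step per library in 100% of cases (tolerance 0.01 reads), which gave the reads; in GemR siSTIM1 vehicle replicate 3 the step was too near 1 to be checked, so count tests ran on 17 libraries.

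Tests were run with limma 3.58.1 (R 4.3.3, trend) on log2(normalized count + 1) for genes with a mean of at least 10, over all 18 libraries and 6 group means, two-sided. Fold changes on this scale understate changes of low genes. Alternatives were other pseudocounts, filters and normalizations, the groups compared alone, a replicate block, a length covariate, edgeR 4.0.16, DESeq2 1.42.0 and leaving out each replicate. In edgeR, 5204 and in DESeq2 5142 genes passed for thapsigargin in Par cells, against 5253 in limma. The deviations of same-numbered libraries did not all correlate above 0.1 in any pair of groups compared directly, so numbers were not taken to pair samples. They did for GemR siSTIM1 thapsigargin with GemR siCont vehicle (r = 0.491, 0.140 and 0.288), which both enter the difference of responses GemR siSTIM1 minus GemR siCont. No pair of replicates agreed within sampling noise (chi-square per degree of freedom at least 1.80 in the pairs compared). The fits were tested on simulated data. Positions and lengths are from GENCODE 29 (GRCh38), by symbol; 20 tested rows with date-like names cannot be matched. The 9 genes and the gene lists were chosen with earlier results of these data known. All 9 are named, STIM1, HSPA5 and DDIT3 serve as checks, and from each list up to 4 passing genes with the largest change, or 2 others, could be named per comparison; the pattern neighbours are the 2 tested genes with the highest Pearson r.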

Additional observations from a re-analysis of the deposited data

Results flagged for a closer look

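The ATP2B1 response to thapsigargin differed between cell lines in a test of the difference itself: on the log2 scale GemR siCont minus Par was 0.66 ± 0.11 (SE, n = 3 per group, limma adjusted p = 0.000284 over 13096 genes). GemR siCont cells had 4974 ± 174 normalized counts with thapsigargin against 1694 ± 168 with vehicle, and Par cells had 4324 ± 216 against 2322 ± 140 (SD, n = 3 each). Set against Par cells, GemR siCont cells had the higher level with thapsigargin and the lower level with vehicle.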

How the results depend on the processing

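Of 81 pairs of a gene and a comparison, 28 passed and 17 of these passed in every alternative run; none of 1719 alternative values turned a called direction. The 17 include ATP2A2 and ATP2B1 with thapsigargin in all 3 conditions. With the library's slope on transcript length as a covariate, 7 of the 9 genes passed for thapsigargin in GemR siCont cells (main count 3), 8 for GemR siCont against Par with thapsigargin (5), 4 for the difference of responses GemR siCont minus Par (1) and 7 for GemR siSTIM1 minus GemR siCont (0). Of all genes, 49.8%, 61.1%, 29.3% and 26.7% then passed in the same order. This covariate left the log2 fold changes as they were and changed only the estimated spread. With only the groups compared, 8 passed for GemR siCont against Par with thapsigargin (5), where the count over all genes stayed within 1.5 times the main 6314. For GemR siSTIM1 against GemR siCont with vehicle 2 passed (6), beside 3315 of all genes against 5496 in the main test. For that comparison edgeR and DESeq2 gave 2 each, beside 4380 and 4447 of all genes. Leaving out 1 replicate at a time gave 2 to 4 genes for thapsigargin in Par cells (4), 2 to 6 in GemR siCont cells (3), 2 to 7 for GemR siSTIM1 against GemR siCont with vehicle (6), and 1 to 3 for the difference GemR siCont minus Par (1). In these comparisons the counts over all genes stayed within 1.5 times the main counts. The exception was that difference without GemR siCont vehicle replicate 1, with 2943 of all genes against 1938. Without both libraries that stood apart, an alternative chosen after seeing the data, 8 passed for GemR siCont against Par with thapsigargin and 3 for the difference GemR siCont minus Par. Over all genes the first count stayed within 1.5 times the main count, and the second was 3852 against 1938. The cause of these changes was not tested. With the replicate number as a replicate block, 5 genes passed for thapsigargin in GemR siCont cells (3), and in the other comparisons the count stayed within 1.5 times. Over all genes the count stayed within 1.5 times in every comparison. Same-numbered libraries all correlated above 0.1 for GemR siSTIM1 thapsigargin with GemR siCont vehicle, and in no pair of groups compared directly. For the difference GemR siSTIM1 minus GemR siCont, which holds both groups, 0 of 9 passed with the block as without it.

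Counts over all genes moved by more than 1.5 times in 6 comparisons. With only the groups compared, 2848 passed for thapsigargin in GemR siCont cells (main 4402), 3129 for GemR siCont against Par with vehicle (5000), 3315 for GemR siSTIM1 against GemR siCont with vehicle (5496) and 316 for the difference GemR siSTIM1 minus GemR siCont (577). With the length covariate, 5042 passed for thapsigargin in GemR siSTIM1 cells (3187), 3841 for the difference GemR siCont minus Par (1938) and 3497 for GemR siSTIM1 minus GemR siCont. The GemR siCont minus Par count was 2943 without GemR siCont vehicle replicate 1 and 3852 without both libraries that stood apart. The GemR siSTIM1 minus GemR siCont count was 346 with edgeR, 1216 without GemR siCont vehicle replicate 3, and 323 to 372 without GemR siCont thapsigargin replicate 1 or 3, GemR siSTIM1 vehicle replicate 1 or 3 or GemR siSTIM1 thapsigargin replicate 1. The 3 samples per group, and for ATP2A3 the 21 to 90 reads per library, limit the precision.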
